A study of Homo sapiens with 12 samples.

Results

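The NDRG gene family (N-myc downstream-regulated genes) has 4 members in the human genome, NDRG1, NDRG2, NDRG3 and NDRG4. They were found by their Ensembl identifiers among the 57820 gene identifiers of the deposited count files, and all 4 were among the 16999 genes that passed the filter on low counts. The cells were AsPC-1, a human pancreatic cancer line, transfected with a scrambled control siRNA (siControl) or with an siRNA against ARNT (siARNT). One day later each culture was divided, and cells were kept in normoxia or placed at 1% O2 for 24 h, and all were collected 48 h after transfection. Each combination of oxygen level and siRNA, 4 groups in all, had 3 samples, A to C, and is named by the pair (Hypoxia siARNT, for example). All groups were lipofected and all come from 1 cell line. The labels name no separate cultures beyond wells plated in triplicate, so the p-values measure the spread between these samples, which may be technical.

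NDRG proteins have an alpha/beta hydrolase-like fold without known hydrolase activity. NDRG1 is a stress-responsive protein that is widely used as a transcriptional marker of hypoxia, and its phosphorylation by SGK kinases is used as a readout of mTORC2 signalling. ARNT (HIF-1 beta) is the shared partner through which HIF-1 alpha and HIF-2 alpha bind DNA. NDRG2 is often low in tumours and has been described as a tumour suppressor. NDRG3 is known as a protein whose stability depends on oxygen and lactate, and NDRG4 is found mainly in brain and heart.

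The deposited libraries held 38525512 to 84337166 counts on genes. ARNT itself, the target of the siRNA, was at 62.4 ± 1.53 CPM (SD, n = 3) in Normoxia siControl and 13.4 ± 0.560 CPM in Normoxia siARNT, and at 69.1 ± 3.81 and 15.3 ± 1.04 CPM in the hypoxic groups. CPM are counts scaled to library size with TMM factors, except that the cell type marker values below use library size alone. The 8 epithelial and pancreatic carcinoma markers were detected in every group (summed level 5870 to 10050 CPM). Markers of endothelium, leukocytes, nerve and muscle summed to at most 1.48 CPM in any library. Among 4 fibroblast markers only LUM was above 1 CPM (335 to 571 CPM), and the list's sum was 547 to 572 CPM in Hypoxia siControl and 336 to 463 CPM in the other groups. Its part in the results was not tested. Libraries Normoxia siARNT B and Hypoxia siARNT C stood apart in their relation of counts to GC content. The slope was 0.424 log2 units per 10 points of GC in the former and 0.238 in the latter, against -0.205 to 0.12 in the other 10.

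The 4 genes share an exon layout that was not used to choose them. In the GENCODE 29 transcript with the longest coding sequence of each, 7 consecutive exons had the same lengths in all members: 106, 121, 63, 61, 87, 57 and 104 nt, 599 nt in all. Over these 599 nt, aligned without gaps, NDRG1 and NDRG3 were the most alike (72.0% identical) and NDRG1 and NDRG2 the least (60.8%). The longest stretch that any transcripts of 2 members had in common was 27 nt (NDRG2 and NDRG4), against a read length of 125 nt. NDRG1 lies on GRCh38 chromosome 8 (133237171 to 133302022, minus strand) and NDRG2 on chromosome 14 (21016763 to 21070872, minus strand). NDRG3 lies on chromosome 20 (36651766 to 36746078, minus strand) and NDRG4 on chromosome 16 (58462846 to 58513628, plus strand).

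NDRG1 (ENSG00000104419.10) was the member with the highest counts in every library. In Normoxia siControl it was at 132.5, 140.7 and 130.5 CPM in samples A, B and C, and in Hypoxia siControl at 1199, 1192 and 1048 CPM. In Normoxia siARNT it was at 107.6, 137.5 and 107.5 CPM, and in Hypoxia siARNT at 187.0, 188.5 and 227.7 CPM. The 3 Hypoxia siControl samples lay far above the other 9, the 3 Hypoxia siARNT samples lay between them and the normoxic samples, and the normoxic groups overlapped. The counts behind these values ran from 5481 to 79475 reads.

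NDRG2 (ENSG00000165795.16) had few reads. It was at 2.15, 2.78 and 2.56 CPM in Normoxia siControl, at 2.81, 2.77 and 2.75 in Normoxia siARNT, at 1.78, 1.44 and 1.85 in Hypoxia siControl, and at 3.42, 3.23 and 3.31 in Hypoxia siARNT. Its lowest group was thus the one in which NDRG1 was highest. Hypoxia siControl overlapped no other group, nor did Hypoxia siARNT, while the normoxic groups overlapped. These levels rest on 67 to 240 reads per library. ARHGEF40 overlaps NDRG2 on the opposite strand. Summed over the samples of a group, it had 1061 (siControl) and 1727 (siARNT) reads in normoxia, and 1100 and 1306 in hypoxia, against 425, 541, 271 and 455 for NDRG2. The strand setting of the counting is not given in the sources used here, so a share of reads could have been given to either gene.

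NDRG3 (ENSG00000101079.16) was nearly level. It was at 67.2, 64.6 and 67.3 CPM in Normoxia siControl, at 63.7, 63.1 and 64.8 in Normoxia siARNT, at 64.8, 62.6 and 64.8 in Hypoxia siControl, and at 73.5, 65.6 and 61.4 in Hypoxia siARNT. The groups overlapped in every comparison of oxygen levels, and the widest spread was within Hypoxia siARNT. Its counts were 2520 to 5450 reads.

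NDRG4 (ENSG00000103034.10) had the fewest reads, 32 to 91 per library. It was at 0.685, 0.700 and 0.668 CPM in Normoxia siControl and at 0.649, 0.687 and 0.837 in Hypoxia siControl. With siARNT it was at 1.06, 1.43 and 1.12 CPM in normoxia and at 1.27, 1.12 and 1.34 in hypoxia. All 6 siARNT samples lay above all 6 siControl samples, and within each siRNA the oxygen groups overlapped. In bulk RNA, a change in the number of cells that express a gene cannot be told apart from a change in the RNA per cell.

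**Figure D1:**
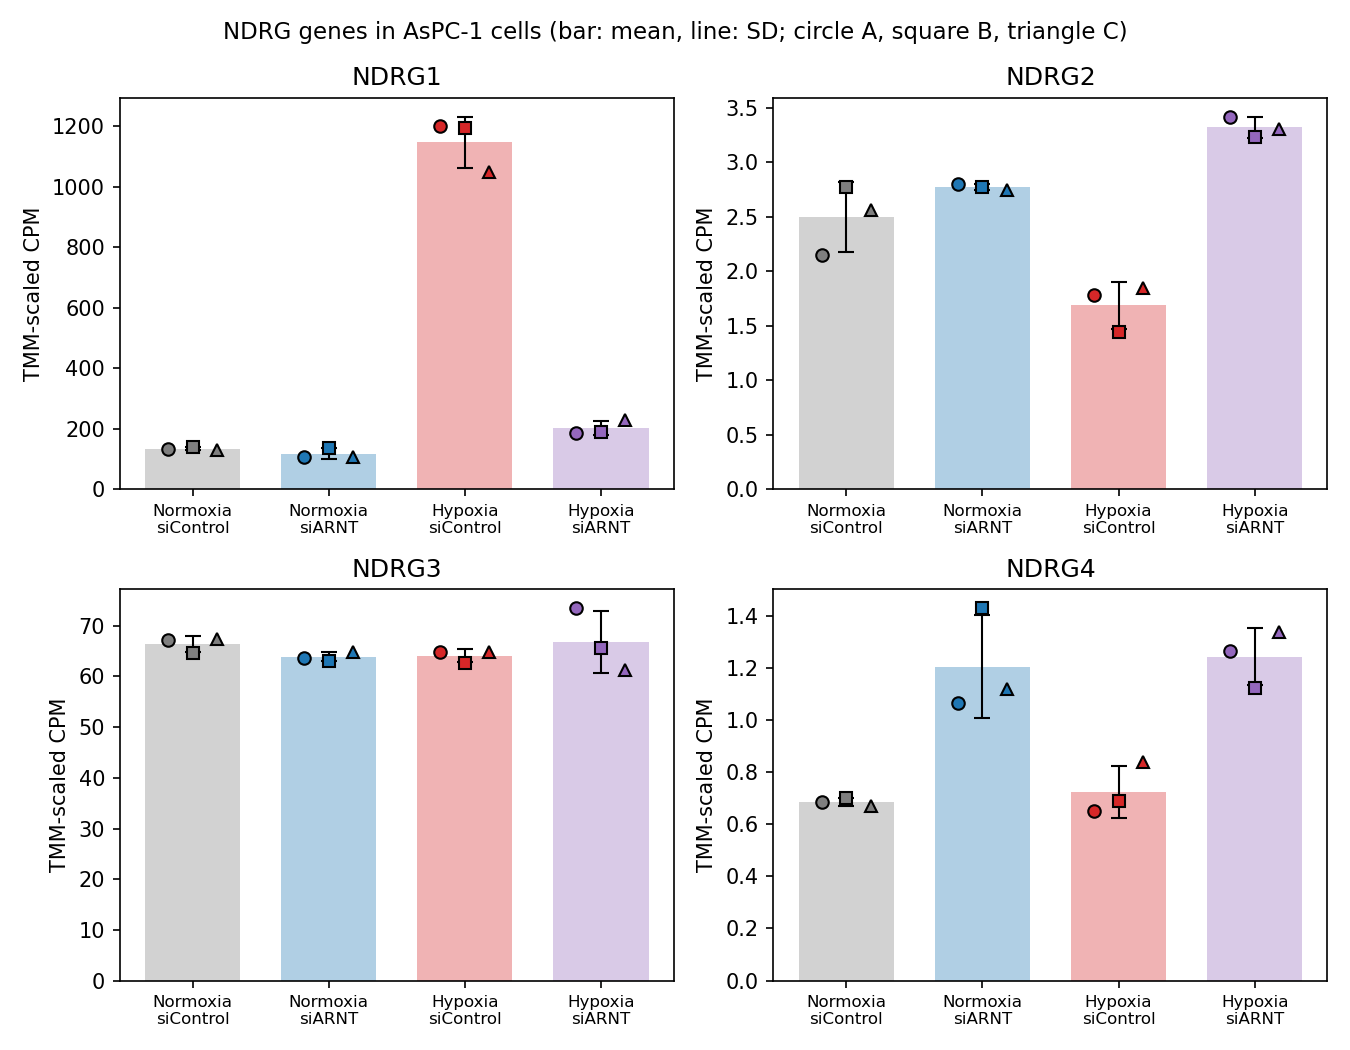
TMM-scaled CPM of NDRG1, NDRG2, NDRG3 and NDRG4 in the 12 samples, with a linear axis of its own for each gene. Bars are group means, lines are SD (n = 3) and points are samples: NDRG1 stands at 1048 to 1199 CPM in Hypoxia siControl and at 107.5 to 227.7 CPM elsewhere, and NDRG4 at 0.649 to 0.837 CPM in siControl and at 1.06 to 1.43 CPM in siARNT.

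As a share of the family's summed CPM, NDRG1 took 64.9 to 67.4% in Normoxia siControl and 93.9 to 94.9% in Hypoxia siControl. With siARNT it took 61.0 to 67.1% in normoxia and 70.5 to 77.5% in hypoxia. NDRG3 supplied nearly all of the rest. Levels between genes were compared per kilobase, and there the order of the leading pair depended on the length used. Per kilobase of all annotated exons, NDRG3 was above NDRG1 in Normoxia siControl (20.4 ± 0.474 against 13.7 ± 0.549 CPM per kb, SD, n = 3). Per kilobase of the transcript with the longest coding sequence, NDRG1 was above NDRG3 (35.8 ± 1.44 against 22.3 ± 0.517). In Hypoxia siControl NDRG1 was first with either length (117 ± 8.67 CPM per kb of exons against 19.7 ± 0.395 for NDRG3). In Hypoxia siARNT the ranges overlapped per kilobase of exons (19.0 to 23.2 for NDRG1 and 18.9 to 22.6 for NDRG3). NDRG2 was below both in all groups (0.224 to 0.440 CPM per kb of exons as group means), and NDRG4 was the lowest (0.0709 to 0.129).

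Hypoxia was compared with normoxia in cells with the control siRNA, which shows how the family responded while ARNT was at its usual level. NDRG1 rose 8.52-fold (95% interval 7.16 to 10.1; log2 change 3.09, SE 0.115, adjusted p = 3.65e-08, edgeR's quasi-likelihood test with Benjamini-Hochberg adjustment over the 16999 genes). NDRG2 fell by 0.56 on the log2 scale (SE 0.133, adjusted p = 0.00914 in edgeR), to 0.680 of its normoxic level (0.556 to 0.832). NDRG3 had a fold of 0.965 (0.875 to 1.06, adjusted p = 0.607) and NDRG4 one of 1.05 (0.808 to 1.37, adjusted p = 0.836). So 2 of the 4 members were called, 1 in each direction, where 25.3% of all tested genes were called (10.4% higher and 14.9% lower). The interval was narrow for NDRG3 and wider for NDRG4, which had far fewer reads.

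In cells with siARNT, hypoxia was again compared with normoxia. NDRG1 rose 1.71-fold (1.45 to 2.01; log2 change 0.77, SE 0.107, adjusted p = 0.00422 in edgeR). This was the only member called, where 4.09% of genes were called (2.21% higher, 1.89% lower). When only these 6 samples were fitted, the NDRG1 change was 0.79 with an adjusted p of 0.067, so the call was lost, and in that fit 22 genes were called in all. NDRG2 had a fold of 1.20 (0.986 to 1.45, adjusted p = 0.274), NDRG3 one of 1.05 (0.949 to 1.15, adjusted p = 0.589) and NDRG4 one of 1.04 (0.814 to 1.32, adjusted p = 0.879).

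The difference between these responses was tested as an interaction. For NDRG1 the hypoxia change was smaller with siARNT (log2 difference -2.32, SE 0.152, adjusted p = 1.48e-05 in edgeR). On the CPM scale the mean gain was 1012 CPM with siControl and 83.5 CPM with siARNT, 8.3% of the former. For NDRG2 the difference had the opposite sign (0.81, SE 0.184, adjusted p = 0.0302), since its siControl value fell and its siARNT value was 0.26 on the log2 scale without passing the test. The NDRG2 interaction was not firm: its adjusted p was 0.0879 without the count filter, 0.0998 with a block for each transfected well, and over 0.05 in 8 of 12 fits that each left out 1 sample (the adjusted p in those 12 fits ran from 0.0277 to 0.0926). NDRG3 (0.12, SE 0.091, adjusted p = 0.477) and NDRG4 (-0.02, SE 0.236, adjusted p = 0.996) were not called. Over all genes 4.69% were called (2.49% higher, 2.19% lower), against 2 of the 4 members.

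ARNT siRNA was compared with control siRNA at each oxygen level. These comparisons share samples with the ones above, so their values are given side by side and not as separate support. In normoxia NDRG4 rose 1.75-fold (1.37 to 2.25; log2 change 0.81, SE 0.165, adjusted p = 0.00613 in edgeR), and it was the only member called, where 20.2% of genes were called (9.42% higher, 10.8% lower). A correction for GC content, which is 59.9% in the longest NDRG4 transcript, brought this change to 0.36 with an adjusted p of 0.178. Without library Normoxia siARNT B it was 0.66 (adjusted p = 0.0252). NDRG1 had a log2 change of -0.20 (SE 0.107, adjusted p = 0.194) and was called only with the GC correction (-0.28, adjusted p = 0.00304, and also with the replicate block added) or without Normoxia siARNT B (-0.33, adjusted p = 0.0305). NDRG2 (0.16, adjusted p = 0.383) and NDRG3 (-0.06, adjusted p = 0.545) were not called.

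In hypoxia 3 members were called, where 29.1% of genes were called (14.4% higher, 14.7% lower). NDRG1 fell to 0.175 of its Hypoxia siControl level (0.148 to 0.208; log2 change -2.51, SE 0.112, adjusted p = 3.53e-08 in edgeR). NDRG2 rose 1.96-fold (log2 change 0.97, 95% interval 0.68 to 1.26, SE 0.133, adjusted p = 0.000195). NDRG4 rose 1.72-fold (1.33 to 2.23; log2 change 0.78, SE 0.169, adjusted p = 0.00436), close to its normoxic value and still called with the GC correction (0.72, adjusted p = 0.00865). NDRG3 had a fold of 1.04 (0.946 to 1.15, adjusted p = 0.527). With total count scaling NDRG3 had a log2 change of 0.14 (adjusted p = 0.0427), but under it the all-gene median was 0.104. The called changes of NDRG1, NDRG2 and NDRG4 in hypoxia kept their direction and their call in all 20 alternative fits.

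**Figure D2:**
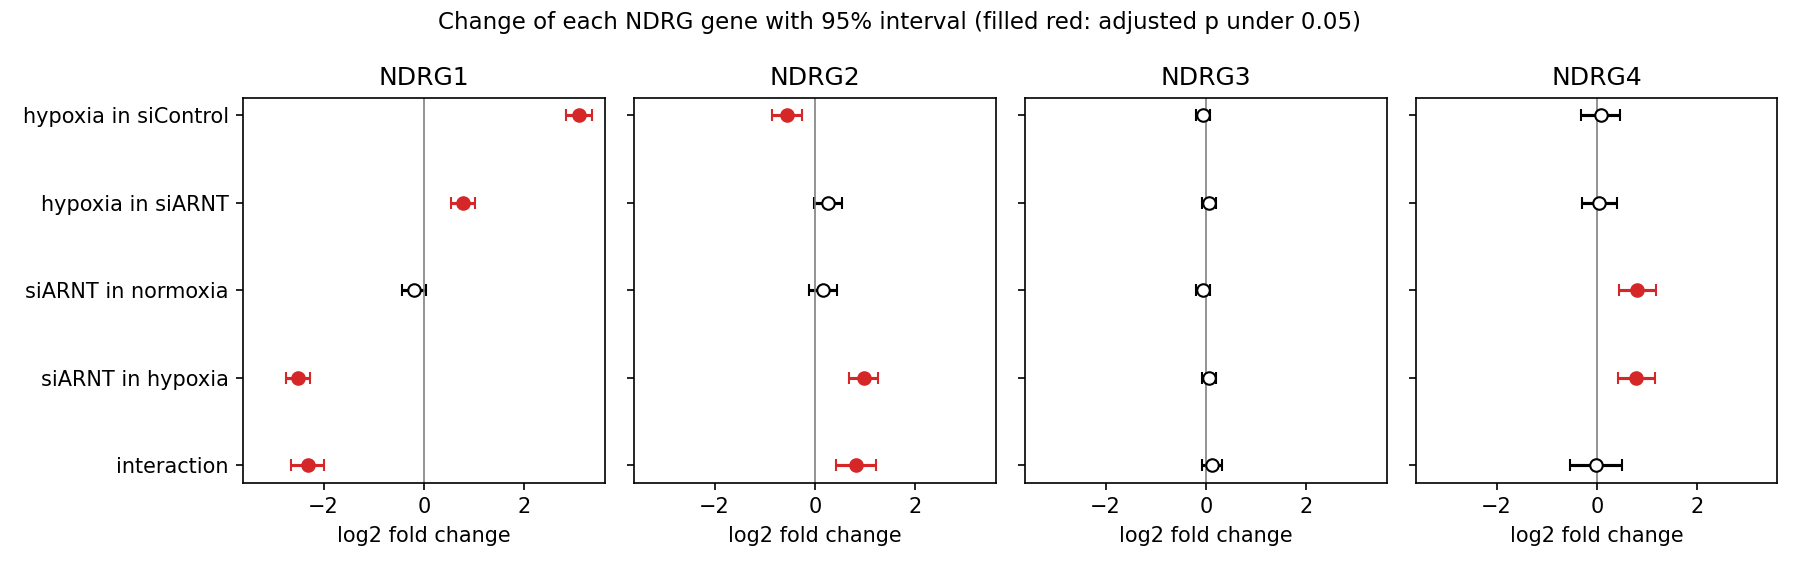
Log2 fold change (horizontal axis) of each NDRG gene in the 5 comparisons named at the left, with 95% intervals; filled red points have an adjusted p under 0.05. NDRG1 runs from 3.09 (hypoxia in siControl) to -2.51 (siARNT in hypoxia), NDRG2 has the sign opposite to NDRG1 in each comparison but hypoxia in siARNT, where both are above 0, NDRG3 lies near 0 throughout, and NDRG4 is higher with siARNT at both oxygen levels.

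The size of the NDRG1 response was set beside a list of 18 genes known as HIF targets, of which 17 were tested (BNIP3 did not pass the filter). The list was chosen with earlier results of these data known, so its counts are a description and not an independent check. In siControl all 17 were called higher in hypoxia, where 10.4% of all tested genes were. Their median log2 change was 1.58, against a median of 0.022 over all tested genes. Of the 17, 4 had a larger change than NDRG1: ANGPTL4, a lipase inhibitor (3.88), PFKFB4, a glycolysis regulator (3.51), EGLN3, an oxygen-sensing prolyl hydroxylase (3.29), and CA9, a carbonic anhydrase (3.27). Of all tested genes 14 had a larger log2 change, and by mean gain in CPM NDRG1 was number 10. With siARNT 5 of the 17 were called higher (ANKRD37, P4HA1, KDM3A, EGLN3 and LDHA), where 2.21% of all tested genes were. The median was 0.24 over the list against -0.039 over all genes. The log2 change that was left with siARNT was 25.1% of the siControl change for NDRG1, against a median of 21.7% for the list. The list ran from -16.2% for ADM, a vasoactive peptide, to 83.3% for ANKRD37. On the linear scale 8.3% of the NDRG1 gain and a median of 7.2% of the list's gains were left. In the interaction 16 of the 17 were called, all lower, where 2.19% of all tested genes were called lower. The exception was ANKRD37, with a log2 difference of -0.50 (adjusted p = 0.264 in edgeR).

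**Figure D3:**
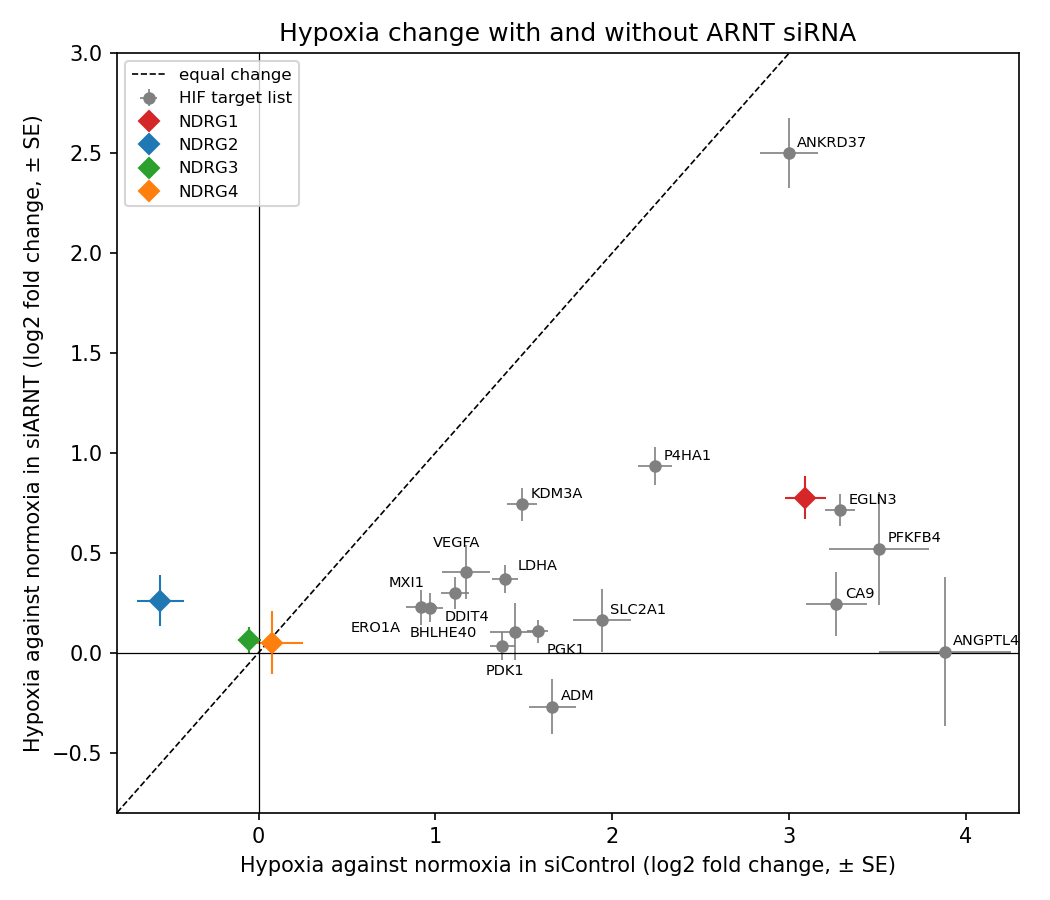
Log2 change with hypoxia in siControl (horizontal axis) against that in siARNT (vertical axis), with SE, for the 17 tested HIF target genes (grey) and the 4 NDRG genes (coloured diamonds); on the dashed line the changes are equal. NDRG1 (3.09 and 0.77) lies among the HIF targets beside EGLN3 (3.29 and 0.71), while NDRG2, NDRG3 and NDRG4 lie near or left of 0 on the horizontal axis.

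The genes most like each member were taken by Pearson correlation of log2(CPM + 0.5) over the 12 samples among genes averaging 5 CPM or more. The samples share the groups, so these values are a description. For NDRG1 they were PSORS1C3 (r = 0.993), BHLHE40 (0.993), ANKZF1 (0.992), EGLN3 (0.991) and ALDOC (0.991). BHLHE40 is a hypoxia-responsive transcription repressor and ALDOC a glycolytic aldolase. All 5 had their highest mean in Hypoxia siControl, and their log2 changes there ran from 0.97 for BHLHE40 to 3.29 for EGLN3. A correlation does not measure the size of a change, which was 3.09 for NDRG1.

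For NDRG2 the most alike were IL6R, the interleukin-6 receptor (r = 0.962), STX3, a syntaxin (0.960), DEPTOR, an inhibitor of mTOR (0.959), DOCK9 (0.956) and SEL1L3 (0.955). Each was lowest in Hypoxia siControl and highest in Hypoxia siARNT, as NDRG2 was. IL6R, for example, had means of 58.6 CPM with siControl and 70.3 CPM with siARNT in normoxia, and of 41.6 and 74.8 CPM in hypoxia.

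For NDRG4 they were APLP2 (r = 0.981), IFFO2 (0.972), the lysosomal protease CTSB (0.965), INPP5A (0.963) and the chaperone FKBP9 (0.963). All 5 had higher means with siARNT at both oxygen levels, CTSB going from 602 to 949 CPM in normoxia and from 581 to 1006 CPM in hypoxia. For NDRG3 the leading gene was SYNJ2BP (0.933), and only 6 genes had a correlation over 0.9, against 215 for NDRG1. Among the members themselves the correlation was -0.771 for NDRG1 with NDRG2 and 0.720 for NDRG2 with NDRG4. The other 4 pairs lay between -0.412 and 0.267.

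Known regulators and partners of the family were counted from a list of 28 genes, 26 of which were tested. This list too was chosen with earlier results of these data known. With hypoxia in siControl 5 of the 26 were called higher and 4 lower, where 10.4% of all genes were called higher and 14.9% lower. Among those higher were EGLN1 (1.10), the prolyl hydroxylase that controls HIF and NDRG3 protein, and CDH1, or E-cadherin (0.60), whose recycling NDRG1 assists. LDHA, which makes lactate, was higher by 1.39 and LRP6, a Wnt co-receptor that NDRG1 binds, by 0.40. The 4 lower genes were MTOR (-0.64), MAPKAP1 (-0.34), which encodes a subunit of mTORC2, the kinase SGK3 (-0.59) and MYC (-0.28), a repressor of NDRG1 transcription. The list's median was 0.08, against 0.022 over all genes.

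With siARNT, 2 of the 26 were called in the hypoxia comparison, where 4.09% of all genes were called, LDHA (0.37) and LRP6 (0.46), both higher. In siARNT against siControl, 5 of the 26 were called in normoxia (3 higher, 2 lower), where 20.2% of all genes were called, and 14 in hypoxia (9 higher, 5 lower), where 29.1% were. One lower call in each is ARNT, the target of the siRNA (-2.22 and -2.17). In hypoxia SGK3 (0.82), MTOR (0.63), MAPKAP1 (0.39) and SGK2 (0.29) were higher, and SGK1 was lower (-0.36), so the SGK kinases did not all move one way. EPAS1, or HIF-2 alpha, was higher at both oxygen levels (0.43 and 0.35), and HIF1A was not called in any comparison. In the interaction 6 were called, where 4.69% of all genes were. SGK3 (0.46), MTOR (0.49) and MAPKAP1 (0.31) had a positive difference, EGLN1 (-0.77), LDHA (-1.02) and CDH1 (-0.42) a negative one. MYCN and LDHB did not pass the count filter. The list's medians in the other 4 comparisons, in the order given here, were 0.09, 0.09, 0.06 and 0.07, against -0.039, 0.011, 0.023 and -0.018 over all genes.

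Neighbouring genes were looked at for changes like those of the members. Of the nearest protein-coding genes around NDRG1, CCN4 had no reads in the 12 libraries and ST3GAL1 had log2 changes of 0.06 with hypoxia in siControl and 0.36 with siARNT in hypoxia (adjusted p = 0.639 and 0.00436 in edgeR). It was also higher with siARNT in normoxia (0.38, adjusted p = 0.00561). DSN1, next to NDRG3, fell with hypoxia in siControl (-0.54, adjusted p = 5.87e-05) and was higher with siARNT in normoxia (0.25, adjusted p = 0.0126) and in hypoxia (0.61, adjusted p = 1.49e-05), while NDRG3 was called in none of these. Beside NDRG4, GINS3 (-0.97, adjusted p = 6.2e-05) and SETD6 (-0.39, adjusted p = 0.0150) fell with hypoxia in siControl. In hypoxia GINS3 rose with siARNT (0.52, adjusted p = 0.00309), as NDRG4 did, and it had a log2 change of 0.06 with siARNT in normoxia (adjusted p = 0.678). ZNF219, next to NDRG2, was not called in any of the 5 comparisons.

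Promoter sequence is shown for NDRG2 and NDRG4, the members that were higher with siARNT in hypoxia, because HIF dimers that hold ARNT bind the core letters ACGTG or GCGTG. The RefSeq table used (GRCh38.p14) holds 5 start sites for NDRG2 and 4 for NDRG4, each with 250 bases before and 50 after it, and none was matched for NDRG1 and NDRG3. ACGTG was found on neither strand in any of the 9 windows, against 21.4% of all 35116 windows of this length. GCGTG was found in 3 NDRG2 windows, 2 of which overlap and share the match, and in 1 NDRG4 window with 4 matches, against 36.5% of all windows. The E-box CACGTG, which contains ACGTG and is bound by MYC, was in none of the 9 and in 7.26% of all. Below, capitals mark GCGTG or its reverse complement CACGC, 5' to 3' on the gene's strand. Which start sites these cells use was not tested.
NDRG2, chr14:21025056-21025355, minus strand: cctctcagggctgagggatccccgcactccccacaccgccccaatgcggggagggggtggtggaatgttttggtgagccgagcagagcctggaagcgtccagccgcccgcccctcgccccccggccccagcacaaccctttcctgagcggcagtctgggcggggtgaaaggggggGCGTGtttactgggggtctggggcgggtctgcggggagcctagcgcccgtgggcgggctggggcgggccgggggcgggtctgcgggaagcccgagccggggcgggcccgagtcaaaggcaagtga
NDRG4, chr16:58463465-58463764, plus strand: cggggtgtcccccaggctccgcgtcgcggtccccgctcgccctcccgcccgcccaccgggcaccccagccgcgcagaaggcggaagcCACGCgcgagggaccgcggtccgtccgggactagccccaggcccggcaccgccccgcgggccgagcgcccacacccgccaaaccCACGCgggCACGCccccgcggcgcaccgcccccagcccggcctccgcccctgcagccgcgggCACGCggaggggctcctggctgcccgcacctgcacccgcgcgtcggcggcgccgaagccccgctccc

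The alternative splicing tables held 12 events of the family, 7 in NDRG1 and 5 in NDRG3, out of 56092 in all. No event of NDRG2 or NDRG4 was in them. Of the 12, 9 had at least 20 junction reads in every sample and at least 10 reads for each form, and were tested. None was called in any of the 5 comparisons by edgeR's quasi-likelihood test on junction counts (smallest adjusted p = 0.852), and none in any alternative fit. Over the 36377 events tested, the percentages called were 0.0055% for hypoxia in siControl, 0.00275% for hypoxia in siARNT, 0.0% for siARNT in normoxia, 0.011% for siARNT in hypoxia and 0.0% for the interaction. With an unadjusted p under 0.05 there were 1766, 1425, 2179, 2098 and 1434 events in that order, and limma called 13, 16, 8, 15 and 18. Calls were thus rare for all genes.

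Reads across NDRG1 junctions were compared in the same groups. For 6 junctions with at least 20 reads in every sample, the mean, scaled to the library's gene counts, was 8.37 to 9.37 times higher in Hypoxia siControl than in Normoxia siControl. At all 6 the samples of these groups did not overlap. With siARNT the ratio was 1.45 to 1.64, and the groups overlapped at each junction, while the NDRG1 counts of these groups did not overlap. In hypoxia the siARNT mean was 0.185 to 0.260 of the siControl mean, with no overlap at any of the 6. In normoxia the siARNT mean was the higher one at 6 of 6 junctions, and at 1 of 6 without library Normoxia siARNT B. For NDRG3, 7 junction counts had ratios of 0.848 to 1.11 with hypoxia in siControl.

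**Figure D4:**
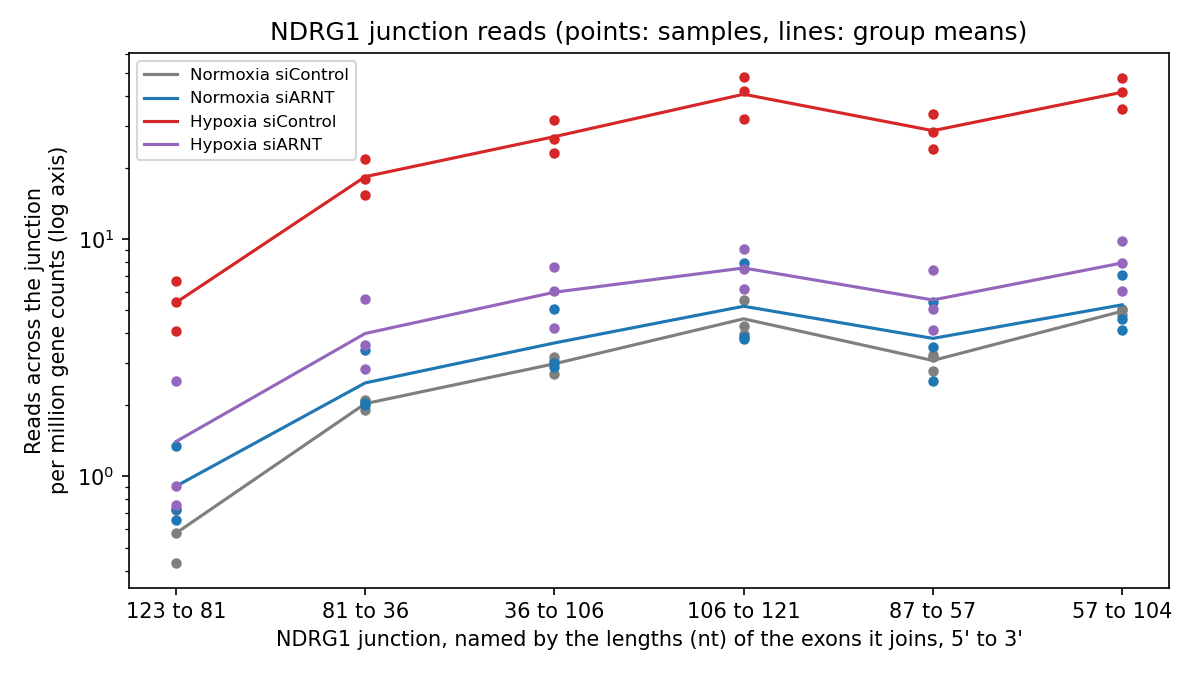
Reads across 6 NDRG1 junctions scaled to gene counts as CPM (log axis), ordered from the 5' to the 3' end and named by the lengths of the exons they join; points are samples and lines group means. Hypoxia siControl lies above the other groups at every junction, by 8.37 to 9.37 times over Normoxia siControl.

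The form used by each event was nearly constant. The 36-nt exon that precedes the 106-nt exon in NDRG1 (134292475 to 134292510 on chromosome 8, as the event tables give it, in a build they do not name) had a PSI of 0.91 to 0.97 over the 12 samples. PSI is the deposited inclusion level, and for skipped exons it sets the mean reads per inclusion junction against the reads of the skipping junction. Here the skipping junction joins the outermost 123-nt exon to the 106-nt exon, so it leaves out the 81-nt exon too. The PSI rests mostly on the junction from the 36-nt to the 106-nt exon (mean 2.98 CPM in Normoxia siControl). The junction from the 123-nt to the 36-nt exon was at 0.0135 CPM there, below the skipping junction (0.113 CPM). It was below the skipping junction in every group. The 81-nt exon before the 36-nt exon (134296492 to 134296572) had a PSI of 0.98 to 1.00. Its skipping junction joins the 123-nt to the 36-nt exon, so reads from the 123-nt to the 106-nt exon are not counted in it. Neither PSI is thus a share of the reads that leave the 123-nt exon. A 131-nt exon between the 57-nt and 87-nt exons (134267513 to 134267643) was rarely included. Its PSI was 0.03, 0.04 and 0.05 in Normoxia siControl, 0.02 in each Hypoxia siControl sample, and 0.01 to 0.03 with siARNT. The log2 change of its odds with hypoxia in siControl was -1.06 (SE 0.402, unadjusted p = 0.0249, adjusted p = 0.996 in edgeR), on 11 to 16 inclusion reads per Normoxia siControl sample.

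An acceptor 4 nt inside the 104-nt exon of NDRG1 had 157 reads in library Hypoxia siControl B (PSI 0.07) and no read in the other 11, although the usual form had up to 2750 reads in its own group. It therefore rests on 1 library. Reads that join the outermost 123-nt exon to the 81-nt exon were 22.7 to 34.7% of the reads that leave the 81-nt exon in Normoxia siControl. They were 32.9 to 39.6% in Normoxia siARNT, 26.7 to 30.8% in Hypoxia siControl and 25.5 to 45.4% in Hypoxia siARNT. The ranges overlapped in each comparison of the design. The remaining NDRG1 exon event, skipping of the 106-nt exon, had at most 3 skipping reads in any library and was not tested.

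NDRG3 has a 36-nt coding exon in the place that corresponds to the NDRG1 one, and it is the exon that most NDRG3 events concern. Its sequence is shown because 2 of the 5 NDRG3 events list it as the only skipped exon and 1 lists it with others. In GENCODE 29 (GRCh38, minus strand) it is, 5' to 3':
NDRG3, chr20:36706972-36707007: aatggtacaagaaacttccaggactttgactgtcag
It matched the NDRG1 exon at 18 of 36 positions. Joined onward to the 106-nt exon, it had a PSI of 0.95 to 0.97 in Normoxia siControl, 0.92 to 0.94 in Normoxia siARNT, 0.94 to 0.99 in Hypoxia siControl and 0.92 to 0.96 in Hypoxia siARNT. The normoxic groups did not overlap, and the test gave a log2 change of the odds of -1.01 with siARNT (SE 0.545, adjusted p = 0.893 in edgeR). In the event that has the 63-nt exon as the next one, its PSI was 0.89 to 0.99. This PSI rests mostly on the junction from the upstream 109-nt exon into the 36-nt exon (group means 2.85 to 3.49 CPM). The junction from the 36-nt to the 63-nt exon was rare, at 0.108 to 0.250 CPM. The skipping junction was at 0.0492 to 0.130 CPM, so the PSI does not measure how often those exons were joined. The log2 change of the odds with hypoxia in siARNT was 1.56 (SE 0.594, unadjusted p = 0.0256, adjusted p = 1.0), on 1 to 16 skipping reads per sample in those groups. The events that skip the 106-nt and 121-nt exons, with or without the 36-nt exon, had a PSI of 0.92 to 0.99. These 4 events share junctions and are not independent. The 87-nt exon of NDRG3 had a PSI of 0.89 to 1.00.

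**Figure D5:**
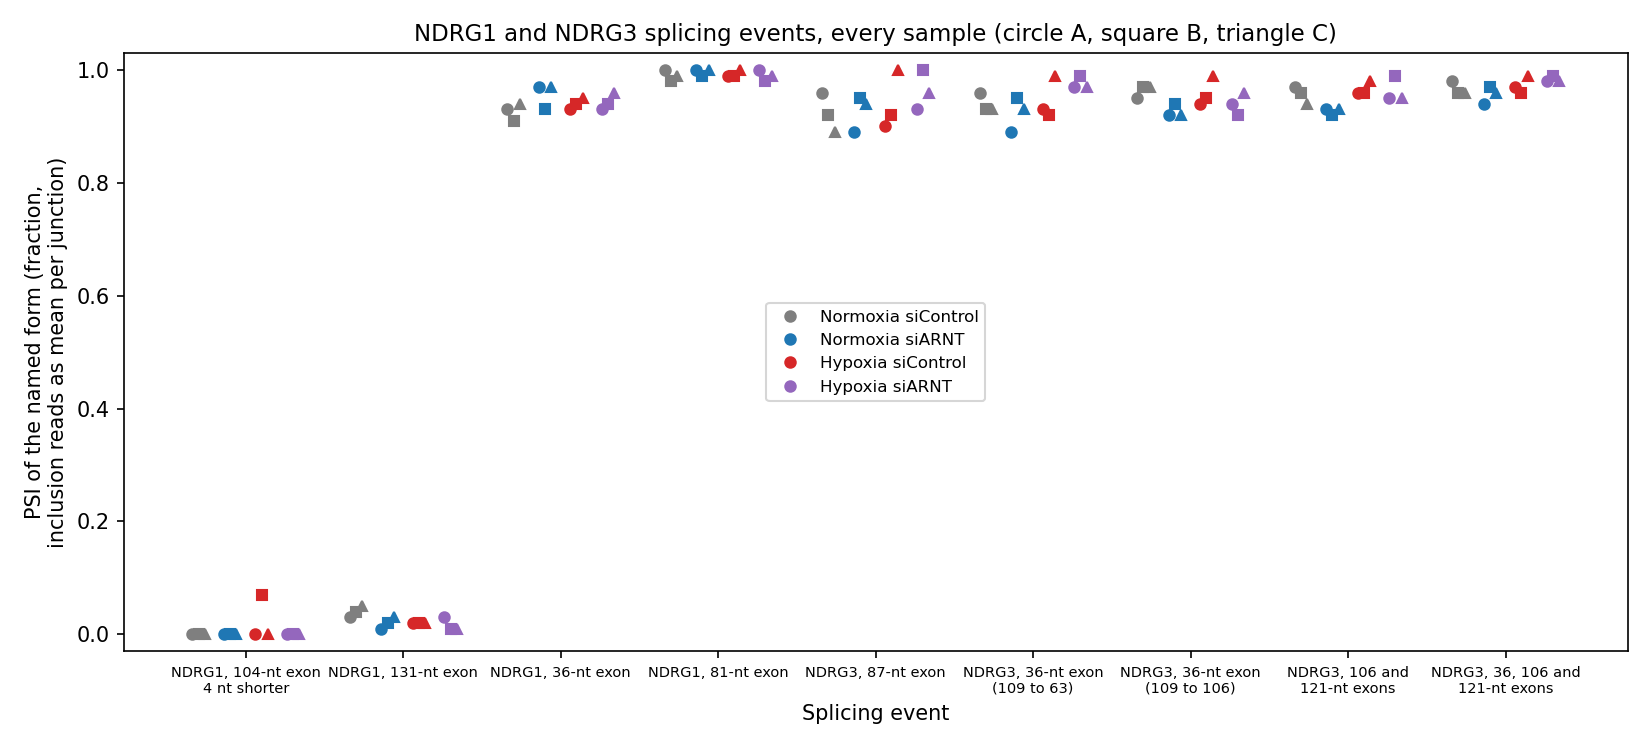
Deposited PSI (vertical axis, a fraction, with inclusion reads as the mean per inclusion junction) of the 9 tested events of NDRG1 and NDRG3 in the 12 samples, coloured by group. The NDRG1 131-nt exon and the acceptor 4 nt inside the 104-nt exon lie at 0 to 0.07 and the other 7 events at 0.89 to 1.00 in all groups.

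Retention was listed for 2 introns near the 3' end of NDRG1. Their deposited PSI was 0.97 to 1.00 in every sample, so few reads joined the exons on either side. In the NDRG1 transcript with the longest coding sequence the last exon is 1944 nt, longer than either intron (1542 and 223 nt). Coverage of these stretches can be coverage of that exon, so a PSI near 1 need not mean a retained intron. Whether they lie inside it was not tested. Reads across the spliced junction numbered 2 to 54 for the first intron (134249773 to 134251314) and 0 to 4 for the second (134250651 to 134250873). Neither reached 10 junction reads, or 5, in every sample, so retention was not tested.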

How the data were processed

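RNA-seq of 12 samples (stranded poly(A) libraries, single reads of 125 nt, per the labels' protocols) was analysed from the deposited gene counts, which are whole reads per Ensembl ID. The submitters' processing notes name Trimmomatic, STAR 2.4.2a and GRCh38.p10. Counts that name no gene (22.71 to 25.2% of all counts of a library, with and without a gene) were left out. The authors' splicing tables hold junction counts, intron coverage (a signal) and PSI as a fraction, in a build the sources used here do not name, and their coordinates differ from GRCh38. Symbols were found for 51996 of 57820 IDs in GENCODE 29.

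Genes were filtered with filterByExpr, scaled by TMM and fitted over all 12 samples with edgeR 4.0.16 (R 4.3.3; quasi-likelihood, robust, 1 term per group), adjusted over 16999 genes and called at 0.05. SE is the log2 change divided by the square root of F. Exon-form events were fitted on inclusion and exclusion junction counts with a term per sample, and retention was planned with limma 3.58.1. DESeq2 1.42.0, other scalings, filters, GC offsets, replicate blocks and leaving out each sample were alternatives. Scripts were tested on simulated data. Named genes are the members, the 5 genes most correlated with each, their neighbours, and called genes of the lists. The members and lists were chosen with earlier results of these data known. One listed gene is counted but not reported by name here.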

Additional observations from a re-analysis of the deposited data

Results flagged for a closer look

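The response of NDRG1 to hypoxia differed between the siRNAs by a test of the difference itself (log2 difference -2.32, siARNT minus siControl, adjusted p = 1.48e-05 in edgeR). The change was higher in hypoxia in both, 3.09 with siControl and 0.77 with siARNT. Every Hypoxia siARNT sample (187.0 to 227.7 CPM) lay above every Normoxia siARNT sample (107.5 to 137.5 CPM).

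The response of NDRG2 also differed by that test (log2 difference 0.81, adjusted p = 0.0302 in edgeR), with changes of -0.56 with siControl and 0.26 with siARNT. The latter did not pass the test. The difference was positive in all 20 alternative fits (0.72 to 0.98) and its adjusted p ran from 0.00427 to 0.0998 in them.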

How the results depend on the processing

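Of 9 called values of the members, 6 kept their direction and call in every alternative fit: NDRG1 with hypoxia in siControl (3.06 to 3.15), with siARNT in hypoxia (-2.61 to -2.43) and in the interaction (-2.41 to -2.17), NDRG2 with hypoxia in siControl (-0.65 to -0.44) and with siARNT in hypoxia (0.86 to 1.06), and NDRG4 with siARNT in hypoxia (0.70 to 0.89). The cause of the changes below was not tested. With only the 6 samples compared, NDRG1 with hypoxia in siARNT was 0.79 and lost its call. The NDRG2 interaction lost its call without the count filter (0.79) and with a block by transfected well (0.81). Leaving out single samples gave 0.72 to 0.92, and the call was lost without Normoxia siControl B or C, Normoxia siARNT A or C, Hypoxia siControl A or B, or Hypoxia siARNT A or B. With the GC correction, NDRG1 with siARNT in normoxia was called (-0.28), NDRG4 there lost its call (0.36), and values that were not called changed sign: NDRG2 with siARNT in normoxia (-0.04), NDRG3 with hypoxia in siControl (0.01) and with siARNT in normoxia (0.02), and NDRG4 with hypoxia in siControl (-0.09) and in the interaction (0.36). For ARNT itself the interaction was -0.02 with the GC correction, with or without the replicate block (0.05 without either). With the GC correction and the replicate block together the same results stood at -0.28, 0.37, -0.05, 0.01, 0.02, -0.09 and 0.34. With total count scaling NDRG3 with siARNT in hypoxia was called (0.14), and the NDRG4 interaction was 0.03. Leaving out single samples gave -0.33 to -0.14 for NDRG1 with siARNT in normoxia, -0.01 to 0.12 for NDRG3 with siARNT in hypoxia, -0.03 to 0.15 for NDRG4 with hypoxia in siControl, -0.04 to 0.20 with hypoxia in siARNT and -0.11 to 0.13 in the interaction. Per kilobase of 1 transcript, an alternative chosen after seeing the data, NDRG1 over NDRG3 was 1.61, 1.46 and 2.39 in Normoxia siControl, Normoxia siARNT and Hypoxia siARNT, against 0.67, 0.609 and 0.995 per kilobase of exons. The replicate letters do not show clear pairing: of 18 same-letter pairs 9 had a correlation of deviations over 0.1 (-0.431 to 0.529), and in 15 of 36 checks a sample was most like its own letter. Most of these pairs cross siRNAs. Only same-letter pairs within an siRNA could be parts of the same divided culture, and these ran from -0.431 to 0.52. The main fit has no term for culture, and the block by well is the alternative that holds one. The replicate block alone changed no call of a member, left the members' events at 0 calls, and gave 4740, 862, 4732, 5425 and 960 called genes against 4299, 696, 3431, 4948 and 797. Over all genes, in the same order of comparisons, the GC correction called 7087, 3635, 5439, 7688 and 3062. Total count scaling called 1495 in the interaction. The 6 samples of a comparison alone called 22 for hypoxia in siARNT, and the block by well called 136 there and 373 in the interaction. Leaving out single samples gave 2873 to 5242, 129 to 707, 1571 to 4148, 3537 to 5847 and 272 to 1188. Retention had no alternative, since neither intron passed the filter. Depth limits NDRG2 (67 to 240 reads), NDRG4 (32 to 91) and the rarer splice forms.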

Other observations

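The summed counts of the 6 NDRG1 junctions were 12.8 to 14.1% of the NDRG1 count in Normoxia siControl and 12.7 to 15.9% in Hypoxia siControl. They were 15.1 to 22.0% in Normoxia siARNT and 12.9 to 18.4% in Hypoxia siARNT. A read that crosses several of these junctions is counted at each, so this is a ratio and not a share of the reads. The highest values were those of Normoxia siARNT B (22.0%) and Hypoxia siARNT C (18.4%), the libraries that also stood apart in GC content. In normoxia the junction mean was higher with siARNT at 6 of 6 junctions (1 of 6 without Normoxia siARNT B, left out after seeing the data), while the NDRG1 count was lower (117 ± 17.3 against 135 ± 5.39 CPM, SD, n = 3, not called). The groups' difference in this ratio was not tested.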
